A study of Homo sapiens with 16 samples.

Results

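This account concerns SK-N-SH cells after 24 h with 10 µM risperidone, set against untreated cells of the same line. The comparison uses 8 of the 16 arrays of the series, chosen by their titles: 4 of cells exposed for 24 h and 4 of untreated cells. The other 8 arrays, from cells exposed to the same dose for 6 h or 48 h (4 each), enter where 24 h is set beside the other times. Every array measured total RNA from a culture grown close to confluence in medium with serum. The titles call the reference cells untreated, while the treatment protocol gives controls the solvent DMSO, and no label says when the controls were harvested. The titles number the arrays as biological replicates but describe no separate cultures, so a p-value reflects only how these samples vary. SK-N-SH is 1 established line, and all groups share it. Of 18239 genes with a probe set of a single symbol, 13680 were bright enough to be tested. A level is a log2 value, so a difference of 1 is a doubling; levels are given as mean ± SD of 4 arrays and differences as estimate ± SE. "Rose" and "fell" mean an adjusted p under 0.05 in limma.

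Risperidone is an antipsychotic that blocks dopamine D2 and serotonin 2A receptors and binds adrenergic and histamine receptors. Neuroblastoma comes from the sympathetic nerve lineage, whose cells make noradrenaline from tyrosine and store it in vesicles. Cultures of SK-N-SH contain 2 kinds of cell that can turn into each other: small adrenergic cells that resemble neuroblasts, and spread mesenchymal cells that adhere to the substrate and make collagen and other matrix proteins. Many antipsychotics are weak bases that gather in acid organelles and disturb cholesterol traffic, so genes of sterol synthesis are a usual readout of such drugs.

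At 24 h the deep changes were falls and the common changes were small rises. Of the tested genes 52.1% passed the threshold, 4821 higher (35.2%) and 2311 lower (16.9%). The counts of gene lists that follow stand beside these shares. By at least 2-fold, 123 genes rose (0.899%) and 534 fell (3.9%). Unless stated, each gene counts by its probe set of highest mean. Other probe sets of DLK1, described below, rose further than any gene so counted. Past 4-fold there were 8 rises and 210 falls, and past 8-fold 0 rises and 68 falls. By contrast 5575 of the 7132 calls were of changes under 1.5-fold. The median change over all tested genes was 0.09, with quartiles of -0.07 and 0.24. All 4 arrays at 24 h lay above the untreated range for 4258 genes (31.1%) and below it for 2075 (15.2%). The split between higher and lower calls depended on the scaling: 67.6% of calls were higher as deposited, and 49.5% with cyclic loess (3182 higher and 3247 lower). The falls of 2-fold or more were not limited to dim genes, since 239 of the 534 had an untreated level of at least 8. The bottom of the scale bounds some of them: 101 ended at a 24 h level under 4, where a fold can be understated.

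**Figure D1:**
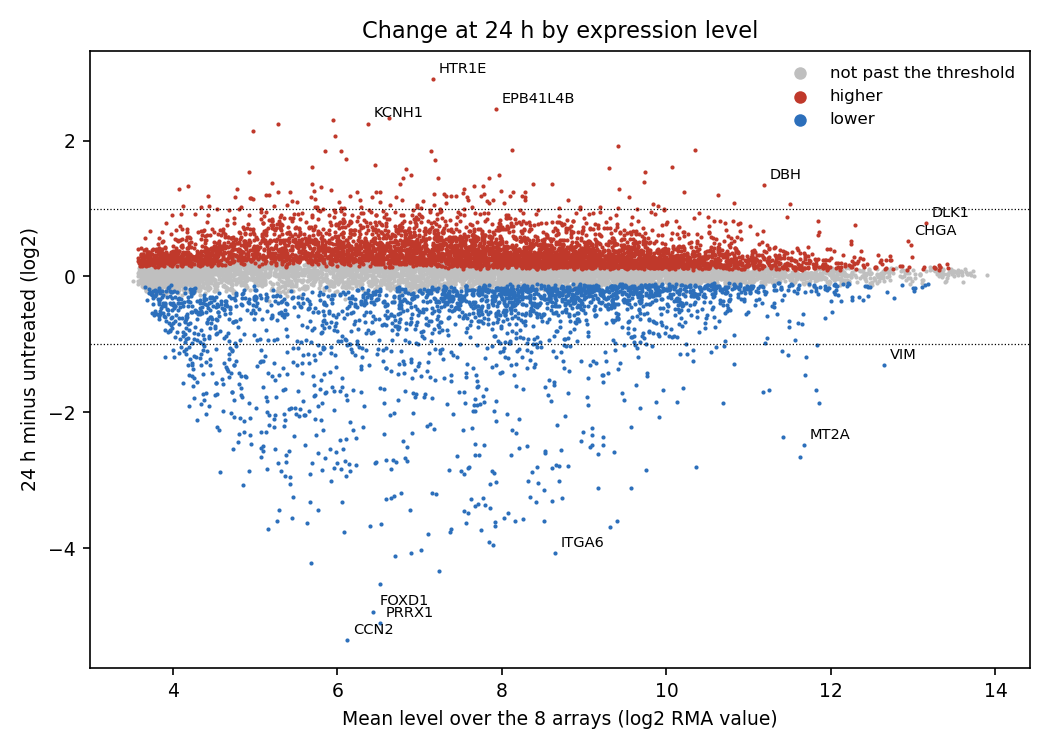
Change at 24 h (24 h minus untreated, log2) against the mean level over the 8 arrays, 1 point per tested gene; red points were higher and blue points lower at an adjusted p under 0.05, and dotted lines mark 2-fold. Each gene is drawn by its probe set of highest mean. Large falls reached -5.35 (CCN2) and outnumbered large rises, which reached 2.91 (HTR1E). XIST and Y-linked genes are not drawn.

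Arrays of a group were close to each other. Correlations over the tested genes were 0.996 to 0.998 among untreated arrays, 0.998 to 0.999 among 24 h arrays and 0.974 to 0.978 between the groups. One measure of RNA quality had different group means, with a p above 0.05. The difference between the 3 prime and 5 prime probe sets of the beta-actin control was 1.77 in untreated arrays (range 1.55 to 1.94) and 2.08 at 24 h (1.94 to 2.16; exact two-sided permutation p = 0.0571, where 0.0286 is the smallest possible). That of the GAPDH control was 0.12 and 0.10 (exact permutation p = 0.314). The part of RNA quality in the gene changes was not tested.

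Markers of the neuroblast-like cells rose and those of the substrate-adherent cells fell. Of 11 tested adrenergic markers, 9 rose and 0 fell, with a median of 0.31. Their mean level lay between 10.91 and 10.97 in the untreated arrays and between 11.26 and 11.3 at 24 h. With cyclic loess 7 of these markers rose and 1 fell, and with renewed quantile normalization 8 rose and 1 fell. Of 12 mesenchymal markers, 11 fell and 0 rose, with a median of -3.15, and their mean level lay between 10.39 and 10.52 in the untreated arrays and between 7.85 and 7.96 at 24 h. Both directions stand beside 35.2% higher and 16.9% lower over all genes. Against the same untreated arrays, the adrenergic median was 0.28 at 6 h and 0.365 at 48 h. The mesenchymal median was -3.365 at 6 h and -3.24 at 48 h. All these contrasts share the untreated arrays, and a difference of those cultures other than exposure was not tested. In bulk RNA, fewer cells of a type and less RNA of that type per cell cannot be told apart. The part of these marker changes in the matrix, adhesion, synapse and other lists that follow was not tested. The label of the line was borne out by its markers: CHGA, a granule protein of chromaffin and sympathetic cells, went from 12.68 ± 0.07 to 13.19 ± 0.04 and ISL1, a sympathetic transcription factor, from 11.04 ± 0.01 to 11.45 ± 0.04. TH, which makes the precursor of dopamine, was dim and did not pass at 4.9 ± 0.13 to 5.06 ± 0.03 (adjusted p = 0.0696). Endothelial markers (4 tested of 8 listed) and hepatocyte markers (2 of 7) had 0 calls by limma. Of 3 leukocyte markers tested, only CD68, a lysosomal protein, passed, and it fell (-1.47 ± 0.10). Of 4 Schwann and glial markers, S100B (0.56 ± 0.05) and SOX10 (0.27 ± 0.10) rose and the myelin gene MBP fell (-1.47 ± 0.10). Among 5 epithelial markers, the keratins KRT18 (-3.55 ± 0.15) and KRT8 (-0.21 ± 0.07) fell. The call of SOX10 was lost without 24 h replicate 1 or 2 (adjusted p = 0.0614 and 0.0901) and with cyclic loess (0.0707), and that of KRT8 without 24 h replicate 3 (0.053).

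Some genes on the list of monoamine receptors moved, in both directions. Binding of risperidone to each of these receptors was not measured here. Of 13 tested monoamine receptors on the list, 5 rose and 1 fell (3 and 1 with cyclic loess). The share of rises, 38.5%, was near the 35.2% over all genes, and that of falls was 7.69%, beside 16.9%. HTR1E, a serotonin receptor that lowers cyclic AMP, had the largest rise of all genes by the probe set of highest mean. It read 5.63, 5.81, 5.75 and 5.62 in the untreated arrays and 8.67, 8.6, 8.59 and 8.59 at 24 h. The groups lay far apart, and the rise was 2.91 ± 0.06 (adjusted p = 2.39e-15). DRD2, the dopamine receptor that antipsychotics block, read 4.85, 4.64, 4.48 and 4.65 in the untreated arrays and 5.64, 5.69, 5.57 and 5.51 at 24 h, and rose by 0.95 ± 0.07 (adjusted p = 2.07e-09). The alpha-2C adrenergic receptor ADRA2C rose by 1.05 ± 0.06, from 6.44 ± 0.07 to 7.49 ± 0.05. HRH1, the histamine receptor through which many antipsychotics sedate, moved the other way: it read 6.18, 6.65, 6.88 and 6.4 in the untreated arrays and 4.68, 4.39, 4.79 and 4.43 at 24 h, and fell by 1.96 ± 0.12 without overlap between the groups. Smaller rises of dim genes were called for DRD4 (0.24 ± 0.09, adjusted p = 0.0381) and ADRA1A (0.16 ± 0.06, adjusted p = 0.0407). Both calls were lost without any 1 of the 24 h replicates 1, 2 and 4 (adjusted p = 0.0546 to 0.116) and with cyclic loess (0.113 and 0.198), and that of DRD4 also without 24 h replicate 3 (0.0711). No call was made for HTR2B (-0.17), HTR1A (0.17), HTR1D (0.00), HTR7 (0.04), DRD3 (0.04) or ADRA2B (0.10), all at levels of 3.7 to 4.2. HTR2A, HTR2C, HTR1B, DRD1, DRD5, ADRA1B, ADRA1D and ADRA2A were too dim to be tested, with untreated levels of 3.19 (HTR2A) to 3.62 (DRD1).

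**Figure D2:**
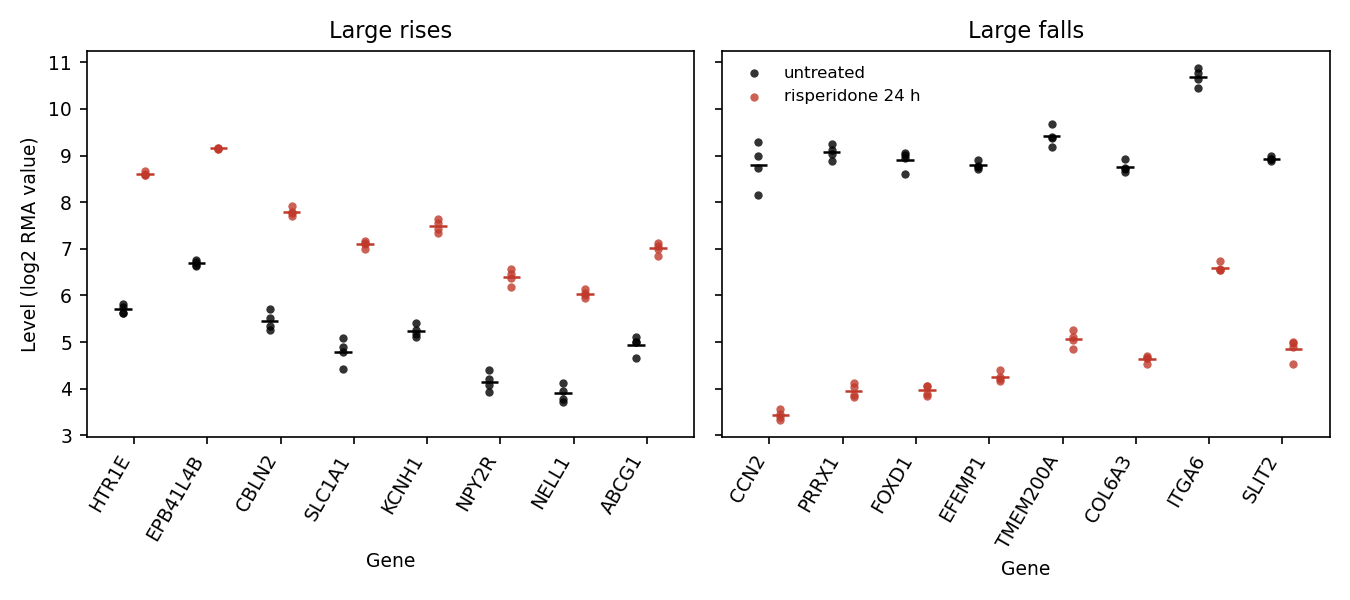
Levels (log2 RMA value) on each of the 4 untreated (black) and 4 risperidone 24 h (red) arrays for 8 genes of large rise and 8 of large fall; lines are group means. In all 16 genes the groups do not overlap: HTR1E rose by 2.91 and CCN2 fell by 5.35.

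Other large rises included genes of neurons and synapses. EPB41L4B, a membrane-skeleton protein, read 6.66, 6.76, 6.72 and 6.63 in the untreated arrays and 9.15, 9.17, 9.16 and 9.15 at 24 h, and rose by 2.46 ± 0.04. CBLN2, a secreted organiser of synapses, rose by 2.33 ± 0.09 (from 5.46 ± 0.19 to 7.79 ± 0.09), and the potassium channel gene KCNH1 by 2.25 ± 0.08 (from 5.24 ± 0.13 to 7.49 ± 0.12). The neuropeptide Y receptor NPY2R was near the bottom of the scale in untreated cells and clearly above it at 24 h, with 4.08, 4.4, 4.21 and 3.93 in the untreated arrays and 6.18, 6.37, 6.57 and 6.45 at 24 h, a rise of 2.24 ± 0.10. The glutamate transporter SLC1A1 rose by 2.3 ± 0.10, although its other probe set changed by 0.26. NELL1, a secreted protein, rose by 2.14 ± 0.09. Also among the 20 largest rises were PPP2R2C, a neuronal phosphatase subunit (1.86 ± 0.05), the nucleotide sugar transporter relative SLC35D3 (1.86 ± 0.09), NECAB1, a neuronal calcium-binding protein (1.85 ± 0.07), SYT17, a synaptotagmin (1.74 ± 0.11), CSPG5, a brain proteoglycan (1.72 ± 0.06), and CLSTN2, a synaptic adhesion protein (1.61 ± 0.07). SPAG4 (1.84 ± 0.10), ADAMTS17, a secreted protease (1.85 ± 0.07), TMEM130 (1.64 ± 0.08), SOBP (1.6 ± 0.06) and the heparan sulfate enzyme HS6ST2 (1.6 ± 0.05) completed this group with genes described in other paragraphs. Where these genes had other probe sets, some rose less: NELL1 0.62 to 1.29, SOBP 0.11 to 1.81, HS6ST2 0.41 to 1.36.

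Most tested genes of noradrenaline handling rose, but TH, which makes the precursor of dopamine, did not pass, as given above. The list for making, storing and degrading catecholamines had 11 rises and 1 fall among 16 genes (median 0.34). Over all genes 35.2% were higher and 16.9% lower. DDC, which makes dopamine from DOPA, went from 11.44 ± 0.08 to 12.25 ± 0.01 (0.81 ± 0.04). DBH, which turns dopamine into noradrenaline, read 10.62, 10.59, 10.37 and 10.46 in the untreated arrays and 11.83, 11.91, 11.81 and 11.85 at 24 h, and rose by 1.34 ± 0.07. SLC18A1, which loads amines into vesicles, read 8.59, 8.42, 8.38 and 8.42 in the untreated arrays and 10.39, 10.39, 10.33 and 10.38 at 24 h, and rose by 1.92 ± 0.05. Neither gene had overlapping groups, which was a condition for naming genes of largest rise or from a list. SPR, of the pathway to the cofactor of tyrosine hydroxylase, fell (-0.26 ± 0.07).

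Transcription factors of the adrenergic state rose in 17 of 19 cases and fell in 2 (median 0.40). EYA1, a developmental co-activator, went from 7.21 ± 0.06 to 8.71 ± 0.02 (1.5 ± 0.05); LMO1, a neuroblastoma oncogene, from 6.48 ± 0.23 to 7.59 ± 0.07 (1.11 ± 0.08); and INSM2, a neuroendocrine repressor, from 9.47 ± 0.15 to 10.46 ± 0.03 (0.99 ± 0.06). MYCN, the oncogene whose amplification marks aggressive neuroblastoma, read 7.08, 7.23, 6.98 and 6.8 in the untreated arrays and 8.17, 8.14, 8.16 and 8.12 at 24 h, a rise of 1.12 ± 0.10 (adjusted p = 4.30e-08). Its other probe sets changed by 0.58 to 1.23. ALK, a receptor kinase mutated in neuroblastoma, rose by 0.88 ± 0.08. The whole MYC and MAX network list had 10 rises and 4 falls in 23 (43.5% and 17.4%), beside 35.2% and 16.9% over all genes. The MYC antagonists MXD1 (0.91 ± 0.06) and MXI1 (0.74 ± 0.05) were higher and CAD, an enzyme of pyrimidine synthesis, lower (-0.68 ± 0.09).

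Most genes of vesicles and release and of synaptic adhesion that passed were higher, beside 35.2% higher and 16.9% lower over all genes. Of 37 genes of vesicles and release, 23 were higher and 3 lower, with RAB3A, a vesicle GTPase, at 0.98 ± 0.06, CPLX2, a clamp of fusion, at 0.80 ± 0.06, and the priming factor CADPS lower at -0.85 ± 0.09. Other probe sets of RAB3A ranged from -0.01 to 0.79. Synaptic adhesion genes rose in 22 of 41 and fell in 7; CNTN1, an axonal adhesion molecule, went from 8.98 ± 0.14 to 10.51 ± 0.11, while the neurexin NRXN3 fell by 1.75 ± 0.10. Potassium channels rose in 20 of 51 cases and fell in 5, among them KCNJ8 (1.19 ± 0.08), an ATP-sensitive channel, and KCNK2 (-1.73 ± 0.10), a leak channel that fell; their share of rises was near that of all genes. Voltage-gated sodium and calcium channels rose in 14 of 26, with SCN3B at 0.92 ± 0.06 and CACNG4 at 0.62 ± 0.05, and the single fall was that of SCN9A (-1.29 ± 0.07); cyclic loess left 8 rises. Glutamate receptors rose in 7 of 14 cases with 0 falls (GRIA4 1.04 ± 0.09, GRIN1 0.70 ± 0.07, GRIK5 0.40 ± 0.06), and cholinergic receptors in 6 of 11 with 0 falls. Cyclic loess gave 5 rises and 1 fall for the glutamate receptors and left the cholinergic counts unchanged. CHRNA3, the main nicotinic subunit of sympathetic ganglia, was already bright and read 10.88, 11.02, 10.91 and 11.04 in the untreated arrays and 12.06, 12.04, 12.02 and 12.02 at 24 h, a rise of 1.07 ± 0.05. CHRNB4, which shares its gene cluster, rose by 0.81 ± 0.10, CHRNB2 by 0.56 ± 0.04 and the muscarinic receptor CHRM3 by 1.05 ± 0.15. None of 7 GABA and glycine receptor genes passed (limma), at a median of 0.14. Neuronal tubulins and microtubule proteins split into 17 rises and 10 falls of 33: MAPT, the axonal protein tau, rose by 1.5 ± 0.06, and TUBB6 and TUBA1C fell by 2.85 ± 0.09 and 2.81 ± 0.12.

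Peptide messengers did not move as a block. Neuropeptides, granins and processing enzymes had 12 rises and 5 falls in 22. NTS, the neurotensin gene, read 9.96, 9.85, 10.18 and 10.2 in the untreated arrays and 7.38, 7.32, 7.24 and 7.13 at 24 h, and fell by 2.78 ± 0.11. GAL, the galanin gene, has a high signal; it went from 11.91 ± 0.10 to 12.66 ± 0.06, and its other probe set rose by 1.81. NMU (0.81 ± 0.05) and CALCB (1.12 ± 0.07), which encode neuromedin U and a calcitonin gene-related peptide, rose. DLK1, a Notch-related membrane protein of neuroblasts, showed the same disagreement between probe sets near the top of the scale: 0.79 ± 0.05 for the set of highest mean, 3.15 to 3.32 for the others. RTN1, a neuroendocrine reticulon, rose by 0.88 ± 0.06. The 19 neuropeptide receptors gave 7 rises and 3 falls, shares near the 35.2% and 16.9% over all genes. Among them the bradykinin receptor BDKRB1 fell (-2.56 ± 0.13).

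Transcription factors of the mesenchymal state fell in 18 of 29 cases and rose in 2 (median -0.66). PRRX1, a homeobox gene that can drive the mesenchymal state, read 8.88, 9.11, 9.04 and 9.25 in the untreated arrays and 4.03, 4.12, 3.86 and 3.83 at 24 h, and fell by 5.11 ± 0.14 (adjusted p = 3.18e-14); its other probe set changed by -1.9. FOXD1, a forkhead factor outside that list, read 8.61, 8.94, 9.01 and 9.06 in the untreated arrays. It read 4.07, 4.07, 3.85 and 3.89 at 24 h, a fall of 4.93 ± 0.09. At 24 h both lay near the bottom of the scale. SIX4 (-2.95 ± 0.11) and BNC2 (-2.86 ± 0.10) fell, and ZEB1, often called a mesenchymal factor, rose slightly (0.24 ± 0.04). Among other developmental factors, SOX9 (-2.31 ± 0.10), SOX2 (-1.78 ± 0.17), HOXB2 (-2.55 ± 0.14), HOXC8 (-1.92 ± 0.09) and FOXO1 (-2.09 ± 0.08) fell and SOX6 rose (0.99 ± 0.08). Counts in these families were 4 rises and 4 falls in 14 SOX genes, 3 and 6 in 19 HOX genes, and 8 and 3 in 24 forkhead genes. Over all genes 35.2% were higher and 16.9% lower, near the shares of the forkhead genes (33.3% and 12.5%).

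Genes of the extracellular matrix fell deeply. Matrix glycoproteins and elastic fibre genes, 39 in all, had 26 falls and 1 rise (median -1.44), and 21 fell by 2-fold or more. EFEMP1, a fibulin, read 8.72, 8.75, 8.9 and 8.78 in the untreated arrays and 4.4, 4.26, 4.16 and 4.2 at 24 h, and fell by 4.53 ± 0.09. FN1, fibronectin, went from 10.36 ± 0.06 to 7.09 ± 0.07 (-3.27 ± 0.09), SRPX from 9.03 ± 0.22 to 5.0 ± 0.19 and POSTN, periostin, from 7.01 ± 0.25 to 3.3 ± 0.07. Collagen chains fell in 13 of 22 cases and rose in 2. COL6A3 read 8.64, 8.71, 8.74 and 8.93 in the untreated arrays and 4.67, 4.7, 4.54 and 4.65 at 24 h, and fell by 4.12 ± 0.11, COL1A1 fell by 3.19 ± 0.10, and COL3A1, whose signal is high, fell by 1.86 ± 0.10 from 12.78 ± 0.07 to 10.92 ± 0.10. COL23A1, a membrane collagen, rose by 0.67 ± 0.11. Collagen-modifying enzymes fell in 12 of 22 cases, among them the cross-linking LOXL1 (-2.85 ± 0.08) and LOX (-1.93 ± 0.09), and laminin chains in 5 of 8 (LAMC1 -1.0 ± 0.07). Other probe sets of LOX ranged from -1.54 to 0.23.

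Sugar-bearing matrix and its remodelling enzymes followed in part. HAS2, which makes hyaluronan, read 7.68, 7.83, 7.94 and 7.7 in the untreated arrays and 3.59, 3.56, 3.65 and 3.45 at 24 h, and fell by 4.22 ± 0.09, and CD44, the hyaluronan receptor, fell by 3.12 ± 0.11. VCAN, a large proteoglycan, fell by 3.25 ± 0.12. Proteoglycans had 12 falls and 4 rises in 24, and glycosaminoglycan synthesis genes 15 and 6 in 31. Matrix metalloproteinases fell in 6 of 14 cases, with the collagenase MMP1 at -3.6 ± 0.20 and the stromelysin MMP3 at -3.6 ± 0.19, and MMP24 rose (0.48 ± 0.06). Of the inhibitors, TIMP1 fell (-1.07 ± 0.06) and TIMP3 rose (0.62 ± 0.05). The serpins SERPINB7 (-3.9 ± 0.14) and SERPINE2 (-2.56 ± 0.12) fell.

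Attachment and tension genes were lower too. Integrin chains fell in 9 of 21 cases and rose in 0: ITGA6, a laminin receptor chain, read 10.44, 10.64, 10.87 and 10.76 in the untreated arrays and 6.57, 6.55, 6.54 and 6.74 at 24 h, and fell by 4.08 ± 0.17, and the collagen receptor chain ITGA2 fell by 3.64 ± 0.11. Focal adhesion proteins fell in 21 of 31 cases, with VCL, vinculin, going from 10.95 ± 0.06 to 9.7 ± 0.04, and TES rising (0.81 ± 0.06). Caveolae genes fell in 4 of 6; CAV1, the coat protein, read 11.04, 11.21, 11.38 and 11.01 in the untreated arrays and 7.63, 7.47, 7.3 and 7.46 at 24 h, and fell by 3.69 ± 0.15. Contractile genes fell in 14 of 22 cases (MYLK -2.82 ± 0.09, MYH9 -1.64 ± 0.06, TPM2 -1.84 ± 0.08) and SORBS2 rose (1.58 ± 0.10). Annexins fell in 6 of 8 and S100 proteins in 8 of 11 cases. ANXA2, a membrane-binding annexin whose probes may also read its pseudogenes, and S100A10, its partner, went from 12.95 ± 0.06 to 10.29 ± 0.12 and from 10.64 ± 0.06 to 8.7 ± 0.10. VIM, the mesenchymal filament protein, stayed bright while falling by 1.31 ± 0.06 from 13.3 ± 0.09 to 11.99 ± 0.07, and LMNA, of the nuclear lamina, fell by 1.71 ± 0.07; NEFL, a neurofilament, rose by 0.43 ± 0.04. The lectin LGALS1 fell by 1.67 ± 0.06 from 12.65 ± 0.10 to 10.98 ± 0.10. Cadherins had 3 rises and 3 falls of 10 as deposited, 0 and 3 with cyclic loess and 1 and 3 with renewed quantile normalization, with CDH11 at -2.05 ± 0.08, and protocadherins rose in 15 and fell in 4 of 31. GJA1, connexin 43, fell by 2.79 ± 0.14, but its other probe set changed by -0.12.

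The Hippo pathway holds the co-activators YAP and TAZ out of the nucleus; with TEAD factors they drive matrix and growth genes. Of 28 regulators and targets, 20 fell and 3 rose (median -0.48). CCN2, a secreted matrix protein and a standard YAP target, had the largest fall of all genes: it read 8.15, 8.74, 9.28 and 8.99 in the untreated arrays and 3.56, 3.46, 3.34 and 3.4 at 24 h, and fell by 5.35 ± 0.17 (adjusted p = 1.40e-13). Its other probe set changed by -4.22. CRIM1 (-3.71 ± 0.16) and TEAD2 (-1.62 ± 0.08) fell, and AMOTL1, which binds YAP, rose (0.30 ± 0.06). The promoter of CCN2 is shown because this gene fell furthest; it is the 250 bases before the RefSeq start, chr6:131951373-131951622 on the minus strand of GRCh38.p14, 5′ to 3′ along the gene, with the TEAD core GGAATG (searched on both strands) in capitals.

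CCN2: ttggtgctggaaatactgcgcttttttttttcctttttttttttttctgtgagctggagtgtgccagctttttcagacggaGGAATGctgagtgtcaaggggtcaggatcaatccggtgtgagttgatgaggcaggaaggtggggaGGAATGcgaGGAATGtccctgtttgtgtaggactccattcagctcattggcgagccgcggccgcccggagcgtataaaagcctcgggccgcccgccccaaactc

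It held 3 matches, 169, 104 and 95 bases before the start. Of 27305 promoters in the RefSeq table, 11.9% had a match in the same 250 bases, against 9.43% of the 11140 tested genes with a promoter and 4 of 22 on the Hippo list (ANKRD1, CCN2, NUAK2 and YAP1, named for their matches). A match is a description of the sequence, not of binding.

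Ligands and receptors of growth signalling moved in both directions. Receptor tyrosine kinases fell in 12 and rose in 7 of 30 cases: AXL read 9.83, 9.96, 10.27 and 10.09 in the untreated arrays and 6.53, 6.42, 6.31 and 6.63 at 24 h, and fell by 3.56 ± 0.11 (other probe set -0.93), and MET fell by 2.12 ± 0.09. VEGFC, a lymphatic growth factor, fell by 3.6 ± 0.16 from 9.96 ± 0.23 to 6.36 ± 0.18, whereas VEGFA, which hypoxia induces, rose by 0.82 ± 0.06. FGF5 (-3.23 ± 0.12) and KITLG (-2.7 ± 0.09) fell and FGF11 rose (1.01 ± 0.09). In the TGF-beta family 15 of 31 genes fell and 10 rose, with the antagonist FST at -3.01 ± 0.10, the receptor TGFBR2 at -2.65 ± 0.12 (other probe set -0.28) and BMPR1B higher at 1.36 ± 0.05. WNT ligands and receptors fell in 12 and rose in 5 of 29 cases, with the antagonist DKK2 at -3.67 ± 0.12 and the ligand WNT5A at -2.67 ± 0.13. The Notch list had 12 rises and 7 falls in 26, with the ligand JAG1 at -1.9 ± 0.08 and NOTCH2 at -1.54 ± 0.06. Guidance genes gave SLIT2, a repellent, at -4.08 ± 0.09 from 8.93 ± 0.05 to 4.86 ± 0.22, and the semaphorin receptors NRP1 and NRP2 at -3.06 ± 0.09 and -1.97 ± 0.09. RGS4, which turns off G protein signals, rose by 0.46 ± 0.04 at a high level (12.74 ± 0.07 to 13.2 ± 0.06), and RGS2 fell by 1.09 ± 0.06. Immediate early genes had 9 falls and 6 rises in 22: IER3 fell by 2.9 ± 0.10 and FOS by 0.42 ± 0.11 (adjusted p = 0.00409). ERK feedback genes had 6 rises and 6 falls of 18 as deposited, and 3 and 8 with cyclic loess.

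Further genes among the 20 largest falls belonged to no block above. These were TMEM200A (-4.34 ± 0.12), MLPH, a melanosome adaptor (-3.96 ± 0.14), ADGRG6, an adhesion receptor (-3.8 ± 0.16), and RDH10, a retinol dehydrogenase (-3.76 ± 0.12). ARHGAP18 (-3.76 ± 0.19), SLC38A4, an amino acid transporter (-3.73 ± 0.14), and PHLDA1 (-3.68 ± 0.08) were the others. The choice of the largest falls required 24 h arrays outside the untreated range. Other probe sets disagreed for ADGRG6 (-3.75 to 0.10) and fell less for TMEM200A (-1.72).

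Most genes of antigen presentation were lower, and cytokine lists differed. The list of MHC class I and presentation had 13 falls and 1 rise among 17 genes (median -0.61). PSMB8, an immunoproteasome subunit, read 7.87, 7.93, 7.84 and 7.7 in the untreated arrays and 5.07, 5.24, 5.01 and 5.02 at 24 h, and fell by 2.75 ± 0.11; PSMB9 (-2.5 ± 0.13) and the peptide transporter TAP1 (-2.63 ± 0.09) fell with it. In the proteasome list, which shares both subunits, PSMD1 fell (-0.33 ± 0.04) and PSMB5, the constitutive counterpart of PSMB8, rose (0.15 ± 0.04). Of 29 interferon-stimulated genes 14 were lower and 4 higher, with the DNA sensor IFI16 at -3.35 ± 0.11 and GBP1 at -2.01 ± 0.08, and IFI27 higher at 0.30 ± 0.08. Of 13 chemokines, 3 fell and 0 rose (median 0.09), and of 23 interleukins and cytokine receptors 10 fell and 3 rose (median -0.16). The chemokines CCL2 (-2.44 ± 0.14) and CXCL12 (-2.39 ± 0.16), the interleukin-1 receptor IL1R1 (-2.83 ± 0.15) and TNFRSF12A (-2.37 ± 0.12) fell, and IFNGR1, an interferon-gamma receptor chain, rose (0.72 ± 0.05). Of 11 TNF receptor genes 6 were lower and 0 higher.

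**Figure D3:**
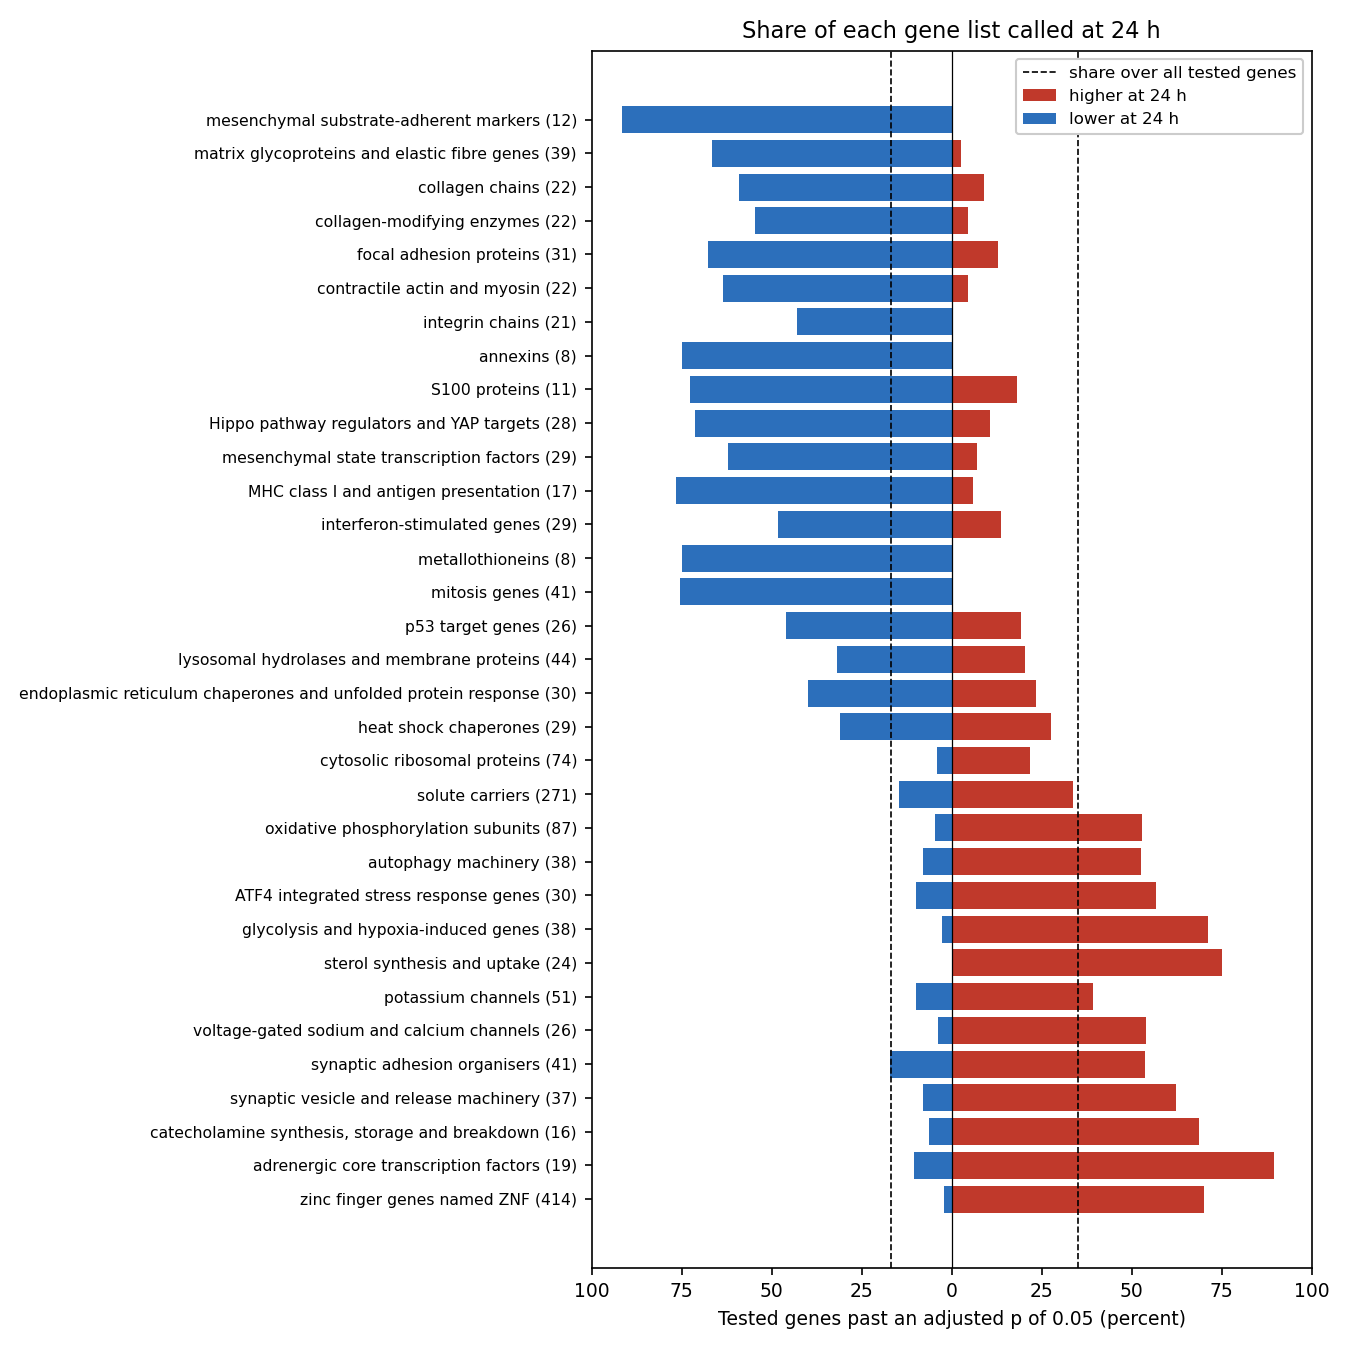
Share of the tested genes of each list (number in brackets) that passed an adjusted p of 0.05 at 24 h, higher (red, right) or lower (blue, left); dashed lines are the shares over all tested genes, 35.2% higher and 16.9% lower. Of the lists drawn, those of matrix glycoproteins, collagens, focal adhesion, integrins and mitosis lie on the lower side; zinc finger, adrenergic and sterol lists lie on the higher side.

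Metallothioneins, small proteins that bind zinc and copper and are induced by both, fell in 6 of 8 cases and rose in 0. MT2A read 12.93, 12.84, 12.96 and 12.9 in the untreated arrays and 10.53, 10.49, 10.31 and 10.37 at 24 h, and fell by 2.48 ± 0.09; the groups did not overlap. MT1E (-2.05 ± 0.12), MT1G (-1.05 ± 0.10), MT1X (-0.99 ± 0.06), MT1F (-0.62 ± 0.08) and MT1H (-0.23 ± 0.09) fell too. MT1B (-0.08) and MT3, the neuronal form (0.06), were dim and did not pass. The call of MT1H was lost without 24 h replicate 1, 2 or 3 (adjusted p = 0.0609 to 0.116) and with array medians subtracted (0.0648). These genes are close copies of each other, and probes may read more than 1 of them. Metallothionein promoters carry metal response elements, bound by the zinc sensor MTF1, and those of MT2A (chr16:56608334-56608583) and MT1X (chr16:56682220-56682469, both plus strand of GRCh38.p14) are shown because these genes fell together. Capitals mark the core TGCGCNC or TGCACNC on either strand in the 250 bases before the RefSeq start, 5′ to 3′.

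MT2A: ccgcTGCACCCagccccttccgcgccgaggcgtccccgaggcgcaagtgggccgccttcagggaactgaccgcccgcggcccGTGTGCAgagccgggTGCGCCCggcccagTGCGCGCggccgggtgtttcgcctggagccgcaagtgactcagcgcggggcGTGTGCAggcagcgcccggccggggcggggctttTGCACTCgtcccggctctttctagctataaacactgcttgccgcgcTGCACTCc
MT1X: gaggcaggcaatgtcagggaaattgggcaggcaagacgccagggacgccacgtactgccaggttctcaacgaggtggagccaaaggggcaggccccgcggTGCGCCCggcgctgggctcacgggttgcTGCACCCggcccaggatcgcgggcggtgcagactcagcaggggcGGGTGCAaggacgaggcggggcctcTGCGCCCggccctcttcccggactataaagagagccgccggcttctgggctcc

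MT2A held 7 matches and MT1X 4. The core was present in 4 of 4 metallothionein promoters in the table, in 24.7% of all promoters and in 32.4% of those of tested genes; MT1H (8 matches) and MT1B (3) were the others. Metal transporters and regulators gave 6 rises and 8 falls in 25 (2 and 11 with cyclic loess), with the zinc importer SLC39A8 at -1.12 ± 0.08.

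Most genes of amino acid supply and of glycolysis rose, and those of protein folding moved in both directions. ATF4 is the factor through which lack of amino acids and other stresses raise synthesis and transport genes; of 30 genes on its list, 17 rose and 3 fell (median 0.28). ASNS, which makes asparagine, read 10.7, 10.87, 10.92 and 10.89 in the untreated arrays and 11.43, 11.55, 11.5 and 11.55 at 24 h, a rise of 0.66 ± 0.05. DDIT4, an inhibitor of mTORC1, went from 9.9 ± 0.10 to 10.76 ± 0.07 and STC2, a secreted glycoprotein, from 5.28 ± 0.08 to 6.55 ± 0.06, while GDF15, a stress cytokine, fell (-0.67 ± 0.07). The promoter of ASNS, chr7:97872409-97872658 on the minus strand of GRCh38.p14, is shown for its amino acid response element (TGATGNAAT or TGATGNAAC, both strands, in capitals), 68 bases before the RefSeq start.

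ASNS: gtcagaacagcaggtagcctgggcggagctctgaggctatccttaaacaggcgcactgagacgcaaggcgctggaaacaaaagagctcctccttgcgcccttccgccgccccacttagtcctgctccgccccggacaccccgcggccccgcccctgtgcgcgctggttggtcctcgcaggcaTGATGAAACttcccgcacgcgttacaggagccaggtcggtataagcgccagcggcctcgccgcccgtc

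Such a match was found in 1.57% of all promoters, in 0.835% of those of tested genes and in 3 of 27 on the ATF4 list (ASNS, CHAC1 and HERPUD1, named for their matches). Serine, glycine and one-carbon enzymes rose in 12 of 21 cases and fell in 1 (GLDC 0.81 ± 0.08, CBS 0.42 ± 0.05). Endoplasmic reticulum chaperones and unfolded protein response genes, by contrast, fell in 12 and rose in 7 of 30 (17 and 4 with cyclic loess), with CREB3L1 at -2.0 ± 0.10 and the co-chaperone DNAJB9 at 0.63 ± 0.06. Genes of glycolysis and hypoxia rose in 27 of 38 cases and fell in 1. ALDOC, a neuronal aldolase, read 9.02, 9.06, 8.8 and 8.96 in the untreated arrays and 10.08, 10.17, 10.15 and 10.1 at 24 h, a rise of 1.17 ± 0.06. PDK1, which limits the oxidation of pyruvate in mitochondria, rose by 1.0 ± 0.05 and BNIP3, a mitophagy receptor, by 0.65 ± 0.04. The carbonic anhydrase CA12 was the only fall on that list (-2.85 ± 0.12). NRF2 and glutathione genes had 9 rises and 9 falls of 34 (8 and 11 with cyclic loess), with GPX8 at -3.27 ± 0.12 and NQO1 at -0.89 ± 0.06.

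Sterol genes rose by small amounts, and lysosomal genes changed in both directions as deposited. Of 24 genes of sterol synthesis and uptake, 18 rose and 0 fell, with a median of 0.32. INSIG2 and INSIG1, which hold the sterol sensor back, rose by 0.65 ± 0.06 and 0.56 ± 0.06, and SQLE, squalene epoxidase, read 9.49, 9.58, 9.53 and 9.59 in the untreated arrays and 10.09, 9.99, 10.02 and 10.03 at 24 h, a rise of 0.48 ± 0.04. All these changes were under 2-fold. ABCG1, a sterol exporter, read 5.0, 5.1, 4.67 and 5.0 in the untreated arrays and 6.99, 7.12, 7.07 and 6.85 at 24 h, a rise of 2.06 ± 0.09 (other probe sets 0.35 to 2.27), whereas the exporter ABCA1 fell by 1.26 ± 0.16 and SOAT1, which makes cholesterol esters, by 1.41 ± 0.08. The 44 lysosomal genes gave 14 falls and 9 rises: CTSC (-1.66 ± 0.10) and LAMP2 (-0.82 ± 0.07) fell and IDS rose (0.57 ± 0.06). With cyclic loess the lysosomal list had 24 falls and 2 rises (median -0.16). Autophagy genes rose in 20 of 38 and fell in 3, with MAP1LC3A, an autophagosome coat protein, at 1.14 ± 0.11, and the cargo receptor SQSTM1 lower at -0.32 ± 0.04 (14 rises and 7 falls with cyclic loess). Of 271 solute carriers, 91 rose and 40 fell, shares near those of all genes (58 and 55 with cyclic loess).

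Most mitosis genes fell, by small amounts. Of 41, 31 fell and 0 rose (median -0.28). CENPF, a kinetochore protein, read 10.09, 9.99, 9.79 and 10.07 in the untreated arrays and 8.93, 8.91, 8.92 and 9.15 at 24 h, and fell by 1.01 ± 0.08; ANLN, of the cleavage furrow, fell by 0.99 ± 0.08 and CDC20, which starts anaphase, by 0.82 ± 0.05. DNA replication and G1/S genes had 12 rises and 4 falls of 48 as deposited, which cyclic loess turned to 6 and 8. CCNE1, the cyclin of S phase entry, rose (0.56 ± 0.06) and E2F7 fell (-0.96 ± 0.10). Of the cell cycle inhibitors, CDKN1C went from 8.23 ± 0.15 to 9.37 ± 0.05 and CDKN2D from 7.38 ± 0.20 to 8.08 ± 0.10, both higher, while CDKN1A fell by 0.89 ± 0.09. Among 26 p53 targets there were 12 falls and 5 rises, with the death receptor FAS at -2.11 ± 0.12 and SESN1 higher at 0.60 ± 0.04.

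Zinc finger genes rose as a family by small amounts. Of 414 tested genes named ZNF, 290 rose and 9 fell, with a median of 0.32 (225 and 20 with cyclic loess, median 0.21). Many encode repressors with KRAB domains and lie in clusters on chromosome 19. There 162 of 204 rose and 0 fell, at a median of 0.39, against 128 rises and 9 falls of 210 elsewhere (0.27) and 325 rises and 63 falls of 799 other genes on chromosome 19 (0.14). In the dimmest class of 3 by level, 63 of 124 ZNF genes rose, against 1021 of 4437 other genes. The middle class gave 195 of 235 against 1828 of 4325, and the brightest class 32 of 55 against 1682 of 4504. ZNF235 read 7.69, 7.81, 7.84 and 7.7 in the untreated arrays and 8.52, 8.55, 8.45 and 8.49 at 24 h, a rise of 0.74 ± 0.04; ZNF566 rose by 0.70 ± 0.05 and ZNF439 by 0.69 ± 0.04. ZNF521, a neural and mesenchymal progenitor factor, was the strongest exception by p (-1.09 ± 0.11).

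**Figure D4:**
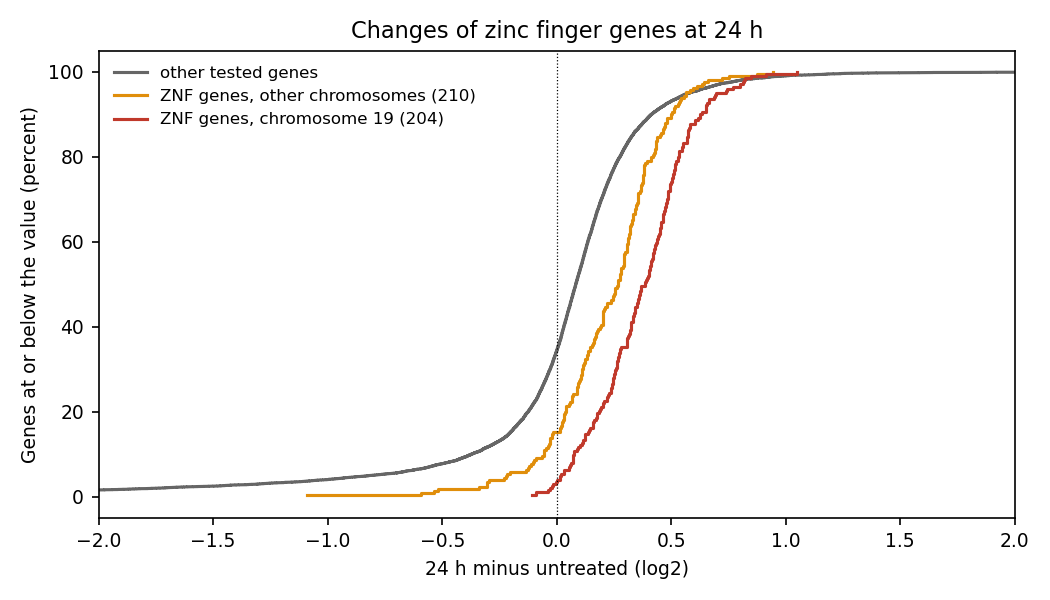
Cumulative share of genes (percent) by change at 24 h (24 h minus untreated, log2) for ZNF genes on chromosome 19 (red), ZNF genes elsewhere (orange) and the other tested genes (grey); XIST and Y-linked genes are not drawn. The chromosome 19 curve lies furthest right, with a median of 0.39, and the curve of ZNF genes elsewhere has a median of 0.27.

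Housekeeping families changed little in size. Subunits of oxidative phosphorylation rose in 46 of 87 cases and fell in 4, at a median of 0.12, beside 35.2% higher over all genes, with COX17 at 0.47 ± 0.04. With cyclic loess that list had 21 rises and 8 falls, beside 3182 rises among 13680 genes. Ribosomal proteins of the cytosol rose in 16 and fell in 3 of 74; the 3 falls were the variant genes RPL22L1 (-0.56 ± 0.06), RPS27L (-0.53 ± 0.05) and RPL26L1 (-0.23 ± 0.04). Translation initiation factors rose in 19 of 48 cases (39.6%, near the 35.2% over all genes) and fell in 4, with EIF4E3 at 0.67 ± 0.06. Cyclic loess gave 7 rises for the ribosomal list and 13 rises and 11 falls for the initiation factors. Heat shock genes had 8 rises and 9 falls of 29 (median 0.00; 7 and 11 with cyclic loess), with BAG3 at -2.03 ± 0.11. KLF9, a target of the glucocorticoid receptor, rose (1.25 ± 0.06), and the receptor NR3C1 fell (-1.32 ± 0.10); the glucocorticoid list gave 6 rises and 10 falls of 17.

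The 24 h state was near that of 6 h and further from that of 48 h. These contrasts are between treated groups; the untreated arrays entered only through the shared spread, the choice of probe sets and the filter of the fit. Between 24 h and 6 h, 329 genes (2.4%) passed, 212 higher and 117 lower at 24 h, and 46 of them by 1.5-fold or more. Leaving out 1 array moved this count to between 163 (without 24 h replicate 2) and 309, and it dropped by more than 1.5 times without any 1 of the 24 h arrays or of the 6 h replicates 2, 3 and 4 (191 to 212 for the 6 h arrays). HDGF, a growth factor, was lower at 24 h than at 6 h (-0.96 ± 0.06), CHRM3 was higher (0.87 ± 0.15), and GPNMB, a lysosomal glycoprotein, was higher (1.31 ± 0.16). Mitosis genes were lower at 24 h than at 6 h in 6 of 41 cases and sterol genes in 5 of 24, beside 117 of all 13680 genes. Matrix glycoproteins were higher in 5 of 39, beside 212 of all genes. Between 24 h and 48 h, 3907 genes (28.6%) passed, 2062 higher and 1845 lower at 24 h, of which 229 differed by 1.5-fold or more. Fitted on the arrays of the groups compared alone, 418 genes passed against 6 h and 4001 against 48 h.

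The named genes that parted 24 h from 48 h were of several kinds. TXNIP, an arrestin that limits glucose uptake, read 10.05, 10.0, 9.88 and 10.0 untreated, 10.25, 10.3, 10.32 and 10.28 at 6 h, 10.15, 10.17, 10.11 and 10.23 at 24 h and 6.22, 6.22, 6.65 and 6.43 at 48 h. It was high in the first 3 groups and low at 48 h, 3.79 ± 0.08 higher at 24 h (adjusted p = 2.91e-15). Its relative ARRDC4 showed a like order, 1.94 ± 0.05 higher at 24 h. EGR1, an immediate early factor, read 8.66, 8.38, 8.8 and 9.03 untreated, 7.49, 7.52, 7.76 and 7.58 at 6 h, 8.19, 8.13, 7.97 and 8.21 at 24 h and 6.1, 5.79, 5.71 and 6.08 at 48 h, so that 24 h lay between untreated and 48 h (2.21 ± 0.12). SMAD6, which restrains BMP signals, and the kinase SGK1 were higher at 24 h than at 48 h by 1.58 ± 0.11 and 1.28 ± 0.08. DDIT3, which encodes the stress factor CHOP, read 3.7, 3.66, 4.04 and 3.83 untreated, 4.05, 4.29, 4.28 and 4.27 at 6 h, 4.27, 4.14, 4.53 and 4.35 at 24 h and 5.83, 5.94, 5.67 and 5.85 at 48 h; it rose by 0.52 ± 0.09 at 24 h and was lower than at 48 h (-1.5 ± 0.09). The kinase LATS1 (-1.53 ± 0.07), the adhesion protein FLRT1 (-1.61 ± 0.10), the anchoring protein AKAP6 (-1.89 ± 0.11) and ANKRD44 (-1.54 ± 0.12) were also lower at 24 h. By list, 18 of 30 ATF4 genes, 13 of 29 heat shock genes and 35 of 48 replication genes were higher at 24 h than at 48 h. Of 414 ZNF genes, 98 were lower and 53 higher. Over all 13680 genes, 2062 were higher and 1845 lower at 24 h.

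**Figure D5:**
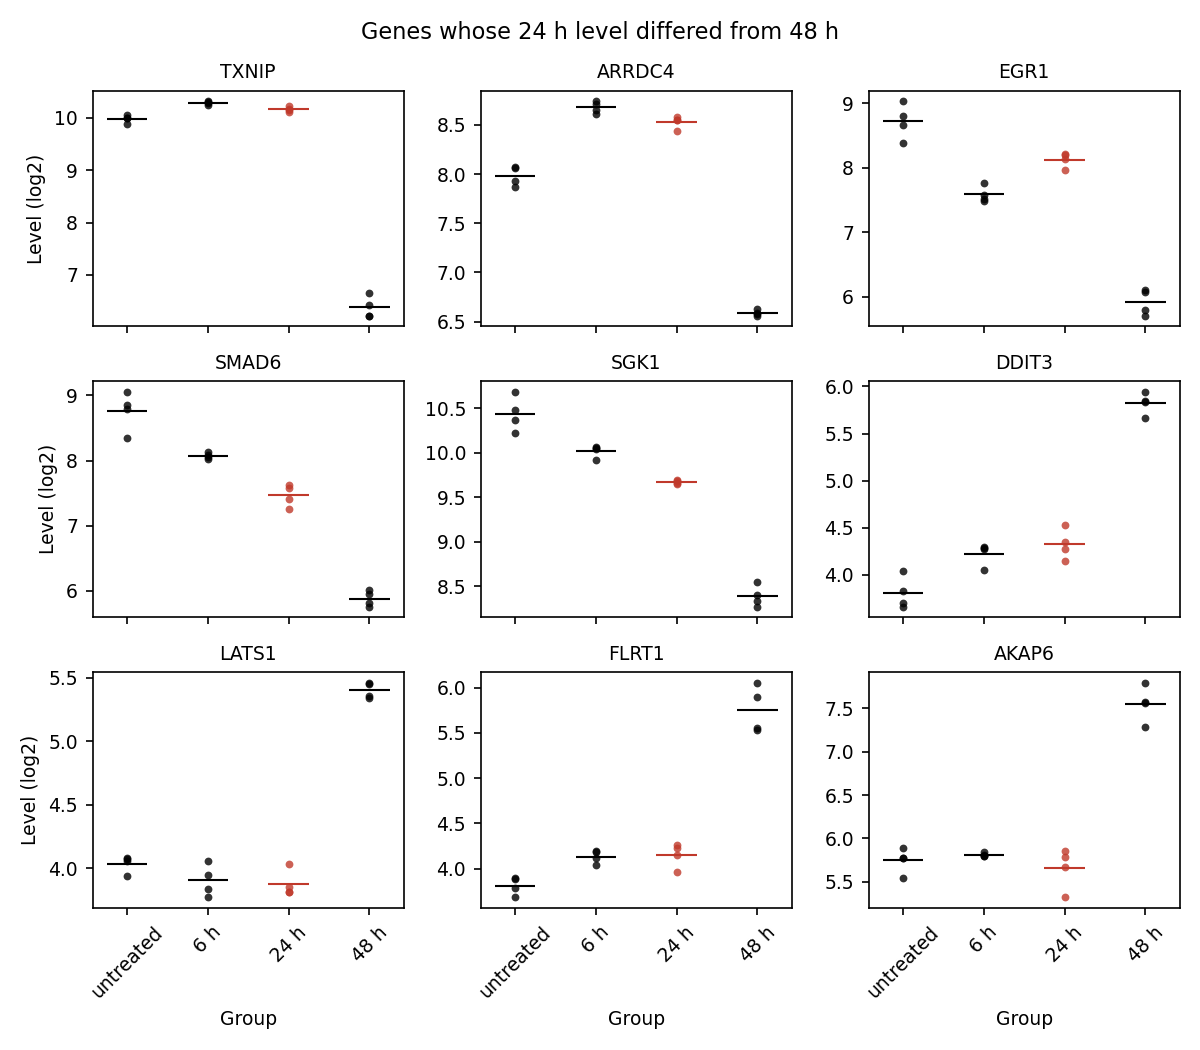
Levels (log2 RMA value) of 9 genes on the 4 arrays of each group, untreated and 6, 24 and 48 h of risperidone, with 24 h in red; lines are group means and the vertical scale differs between panels. TXNIP was 3.79 higher at 24 h than at 48 h, and AKAP6 lower by 1.89.

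For most genes changed by 2-fold at 24 h, the other probe sets moved in the same direction. All other probe sets were lower for 327 of 354 genes that fell by 2-fold and had any, and higher for 83 of 86 that rose. These counts use the sign alone, over probe sets bright enough to be tested, so much smaller changes are included. With the mean of probe sets, 368 genes fell and 78 rose by 2-fold, against 534 and 123. Side by side, and with the untreated arrays shared, HTR1E stood at 2.7, 2.91 and 3.29 above untreated at 6, 24 and 48 h, DBH at 1.16, 1.34 and 1.74, and CCN2 at -5.62, -5.35 and -5.7.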

How the data were processed

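Total RNA of 16 SK-N-SH samples was hybridised to 1-colour Human Genome U219 arrays, per the labels. The deposited table holds 1 log2 value for each probe set and array, made by RMA, per the submitters' processing notes; RMA equalises distributions between arrays, so a change in total RNA per cell cannot be seen. The program that ran RMA is not given in the sources used here. Of 49386 probe sets, 45253 had a single symbol, 1327 several and 2713 none (93 were controls); 45172 matched RefSeq by Entrez identifier, which changed 0 symbols. Each of 18239 genes was represented by its probe set of highest mean over 16 arrays (11822 had more than 1), and the lowest 25% (mean under 3.65) were left out. limma 3.58.1 in R 4.3.3 (lmFit, eBayes, two-sided) was fitted to all 16 arrays with a mean per group; Benjamini-Hochberg adjustment ran within each contrast. The precision is limited by 4 arrays a group, with a median SE of 0.07. Control-transcript differences were compared by exact permutation with scipy 1.17.1. Promoter sequences are RefSeq's (GRCh38.p14).

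Members and gene lists were chosen with earlier results of these data known, so lists are described by counts and medians without a set test. Named genes were the 20 largest rises and falls with all 4 arrays outside the untreated range, up to 3 members of smallest p per list and 1 against its majority, the 6 largest changes in each direction among the brightest 5%, the 5 largest differences in each direction between times, a fixed set of receptors and lineage genes, and all metallothioneins; not all are printed, and some genes of the fixed set are not analysed here. Genes named for promoter matches were added after their values were seen. The fit was tested on simulated data. Alternatives covered probe set choice, filter, scaling, eBayes options, array weights, a replicate block, the arrays fitted, thresholds and each array left out.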

Additional observations from a re-analysis of the deposited data

Results flagged for a closer look

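Single arrays stood apart from the other 3 of their group, by Dixon's criterion at 95%, in 26 of the 476 groups of 4 examined for 238 named genes; chance flags about 1 in 20 such groups. At 24 h the high arrays were those of CCL2 (replicate 1 at 3.78, others 3.48 to 3.53), CENPF (replicate 4 at 9.15, others 8.91 to 8.93), CLSTN2 (replicate 1 at 6.58, others 6.46 to 6.48), CRIM1 (replicate 1 at 5.98, others 5.32 to 5.4), HTR1E (replicate 1 at 8.67, others 8.59 to 8.6), ITGA6 (replicate 4 at 6.74, others 6.54 to 6.57), MT1B (replicate 2 at 4.02, others 3.76 to 3.79), MT1F (replicate 1 at 8.07, others 7.82 to 7.84) and PPP2R2C (replicate 2 at 9.21, others 8.99 to 9.02). Low arrays at 24 h were those of ADRA2C (replicate 4 at 7.42, others 7.51 to 7.52), COL1A1 (replicate 1 at 5.08, others 5.2 to 5.22), CSPG5 (replicate 4 at 8.0, others 8.05 to 8.06), KITLG (replicate 1 at 5.14, others 5.38 to 5.4), NRP1 (replicate 3 at 6.17, others 6.36 to 6.38), PHLDA1 (replicate 4 at 4.39, others 4.6 to 4.61), SLC18A1 (replicate 3 at 10.33, others 10.38 to 10.39), SORBS2 (replicate 1 at 7.54, others 7.65 to 7.67) and SOX6 (replicate 3 at 5.43, others 5.6 to 5.62). Among untreated arrays the high ones were those of CNTN1 (replicate 2 at 9.19, others 8.89 to 8.92) and SYT17 (replicate 2 at 5.72, others 5.05 to 5.11). Untreated arrays were low for CSPG5 (replicate 3 at 6.14, others 6.37 to 6.39), E2F7 (replicate 1 at 8.25, others 8.57 to 8.62), HDGF (replicate 1 at 11.68, others 11.69 to 11.69), LATS1 (replicate 2 at 3.94, others 4.06 to 4.08), VIM (replicate 1 at 13.16, others 13.34 to 13.35) and ZEB1 (replicate 1 at 9.37, others 9.52 to 9.55). Many of these gaps are small, as levels within a group lay close together.

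For 12 named genes the 24 h level differed from another exposure time by more than 1.5-fold (limma treat, adjusted p under 0.05). TXNIP (3.79), EGR1 (2.21), ARRDC4 (1.94), SMAD6 (1.58), SGK1 (1.28) and CALCB (0.92) were higher at 24 h than at 48 h. AKAP6 (-1.89), FLRT1 (-1.61), ANKRD44 (-1.54), LATS1 (-1.53) and DDIT3 (-1.5) were lower at 24 h than at 48 h, and HDGF (-0.96) was lower at 24 h than at 6 h.

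Of 2445 probe sets with several symbols or none that were bright enough to be tested, 979 passed the threshold at 24 h against untreated, 658 higher and 321 lower. They are not named.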

How the results depend on the processing

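With every probe set tested by itself, 9582 were higher and 5195 lower (227 and 1129 by 2-fold), 848 differed from 6 h and 8196 from 48 h, as more features were tested. A minimum of 1.5-fold (treat) left 259 higher and 630 lower, 1 against 6 h and 28 against 48 h. Cyclic loess left 3182 higher. The mean of probe sets left 78 rises of 2-fold, and leaving out the dimmer 50% left 282 falls of 2-fold. Array weights gave 839 genes against 6 h, and an adjusted p of 0.01 gave 113 against 6 h and 2439 against 48 h. Leaving out 1 array gave 4273 to 4866 higher, 2141 to 2412 lower, 115 to 139 and 519 to 556 by 2-fold, 3323 to 3856 against 48 h and 163 to 309 against 6 h. The cause of these differences was not tested where none is given.

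The replicate numbers were not taken as pairs, since not every same-numbered pair of arrays had deviations that correlated above 0.1: the values were -0.007 to 0.12 for untreated and 24 h, -0.0014 to 0.18 for 6 h and 24 h (3 of 4 above 0.1) and -0.079 to 0.062 for 24 h and 48 h. Of the 24 h arrays, 2 of 4 correlated best with the untreated array of their number. The replicate block gave 4864 higher and 2322 lower, and 327 against 6 h and 3946 against 48 h.

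List medians near 0 changed sign. Cyclic loess turned those of claudins (-0.040), adenylyl cyclases (-0.062), T-box (-0.015) and Kruppel-like factors (-0.014), fatty acid (-0.041) and sphingolipid enzymes (-0.052), ABC transporters (-0.053), NRF2 targets (-0.049), aldehyde dehydrogenases (-0.023), mitochondrial ribosomal proteins (-0.0044) and replication genes (-0.031). No filter turned proteoglycans (0.0125), receptor tyrosine kinases (0.0275), fibroblast growth factors (0.03), the insulin-like growth factor system (0.03) and WNT genes (0.02). The mean of probe sets turned receptor tyrosine kinases (0.0072), fibroblast growth factors (0.0525), aldehyde dehydrogenases (-0.0019) and cell cycle inhibitors (0.017). Leaving out the dimmer 50% turned fibroblast growth factors (0.325) and T-box factors (-0.145). Without single arrays the median of fibroblast growth factors ranged from -0.131 to 0.0638 (turned without untreated replicate 1) and that of epithelial markers from -0.191 to 0.00917 (turned without untreated replicate 3).

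Of 238 named genes, 173 kept direction and side of the threshold in every alternative run. Sign changes were limited to 4 genes that did not pass. AKAP6 gave 0.0225 with the mean of probe sets and -0.157 to 0.0258 without single arrays. DRD3 gave -0.0054 with cyclic loess and -0.0483 to 0.105 without single arrays. HTR1D gave -0.0144 with renewed quantile normalization, -0.0421 with cyclic loess and -0.035 to 0.0217 without single arrays. HTR7 gave -0.00604 with cyclic loess and -0.0075 to 0.0783 without single arrays. Signal near the bottom of the scale limits the folds of dim genes.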
